A study of Mus musculus with 2 samples.

Results

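The common gamma chain family was described here through 9 genes, 3 ligands (Il2, Il15 and Il21) and 6 receptor chains (Il2rb, Il2rg, Il7r, Il15ra, Il21r and Il4ra), out of 32285 genes in the count matrices. The members were chosen by gene symbol, and all 9 had UMIs (unique molecular identifiers, 1 per captured transcript) in the kept cells of both libraries. The cells were live CD45+ cells without EPCAM, Ter119 or CD31, sorted from the lamina propria, the connective tissue under the epithelium, of the mouse small intestine. The Aster-A F/F pool carried floxed alleles of Aster-A, the product of Gramd1a. The CD4-Cre; Aster-A F/F pool carried the same floxed alleles and a CD4-Cre transgene, which is known to delete floxed segments in αβ T cells of the CD4 and the CD8 lineage. Each pool came from 3 female littermates aged 10 to 12 weeks that had been fasted for 16 h and given olive oil by gavage for 2 h, with 100000 cells sorted per mouse. The pools are called F/F and CD4-Cre below.

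Cytokines of this family signal through receptors that share Il2rg, the common gamma chain, which works with the kinase Jak3, while the partner chain works with Jak1. Il2rb serves both IL-2 and IL-15, and Il15ra holds IL-15 on the surface of the producing cell and presents it to neighbours. IL-7, received by Il7r, keeps resting T cells and innate lymphoid cells alive, and IL-15 does so for natural killer cells and intestinal intraepithelial lymphocytes.

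Each genotype was 1 pool, so there was no replicate and nothing was tested. Values are given for both pools as CPM (the gene's UMIs scaled to 1e6 UMIs of the class), with 95% intervals that cover counting error only and leave out the variation between mice. A ratio is CD4-Cre over F/F. Because UMIs are scaled by the class total, less transcript per cell and fewer transcribing cells in a class cannot be told apart from the CPM alone.

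Filtering kept 12594 F/F and 12526 CD4-Cre cells, with medians of 15319.5 and 14031.0 UMIs, and 47 cell barcodes were shared by the libraries. The cells formed 27 clusters, and 14 classes are described, 9 of them with at least 100 cells in both pools. Zbtb16-led, Klra7- and Xcl1-led and Gzma-led cells mixed markers of several cell types and were named after genes only. Il17a-led cells held T cell markers, Trac in 93.2% and 87.7% and Cd4 in 77.0% and 94.7% of cells, but 0 CD4 T markers were among their 10 leading genes, so they too were named after a gene. The immunoglobulin-rich class held 8303 and 7249 cells. Listed markers were seen in the classes named for them, in unequal shares. Cd3e was seen in 77.0% and 73.9% of CD4 T-like cells, Xcr1 in 91.8% and 89.6% of cDC1-like cells and C1qa in 85.7% and 80.3% of macrophage-like cells. They were rarer in cDC2-like cells, with Cd209a in 43.9% and 25.3%, Sirpa in 43.0% and 24.7% and Clec10a in 33.6% and 16.5% of cells. The pools differed in depth in this class, with medians of 8042.0 and 3712.5 UMIs. In CPM, Cd209a was 164 and 168, Sirpa 99.0 and 59.0 and Clec10a 131 and 76.1. In ILC2-like cells Gata3 was seen in 56.8% and 49.2% and Il1rl1 in 61.4% and 29.2%. In CD4 T-like cells Cd4, kept out of the clustering, stood at 212 and 1060 CPM and was seen in 55.7% and 90.4% of cells. Cd4 was higher in CD4-Cre also in Zbtb16-led cells, at 50.7 and 212 CPM, CD8 T-like cells, at 10.7 and 68.8 CPM, and Il17a-led cells, at 417 and 1440 CPM. The cause was not tested. The targeted gene Gramd1a was at 49.1 and 42.3 CPM in CD4 T-like cells, a ratio of 0.862 (0.704 to 1.06), and at 71.4 and 55.1 CPM in CD8 T-like cells. A 3′ tag that lies outside the deleted segment checks nothing, and which exons are floxed was not stated in the labels.

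On GRCm38, 2 pairs of members are neighbours. Il2 (ENSMUSG00000027720, chromosome 3, 37120523 to 37125959, minus strand) and Il21 (ENSMUSG00000027718, chromosome 3, 37222759 to 37232636, minus strand) lie 96799 bases apart with 0 protein-coding genes between them. Il4ra (ENSMUSG00000030748, chromosome 7, 125552120 to 125579474, plus strand) and Il21r (ENSMUSG00000030745, chromosome 7, 125603429 to 125633570, plus strand) lie 23954 bases apart, also with 0 between. Il7r (ENSMUSG00000003882, chromosome 15, 9505788 to 9530176) and Il2rb (ENSMUSG00000068227, chromosome 15, 78479256 to 78495271) share a chromosome and the minus strand. Il2rg (ENSMUSG00000031304, chromosome X, 101264378 to 101268255, minus strand), Il15 (ENSMUSG00000031712, chromosome 8, 82331632 to 82403222, minus strand) and Il15ra (ENSMUSG00000023206, chromosome 2, 11705290 to 11734317, plus strand) complete the set. Il2 overlaps Adad1 on the opposite strand in the annotation.

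Promoters of 7 of the 9 members, 8 entries in all, were in the RefSeq table for GRCm38.p6 (250 bases before to 50 after the start); Il2rb and Il15 were not among them. They were searched on both strands for 5 motifs: TTCNNNGAA, the spacing read by most STAT proteins, the wider STAT6 spacing, the interferon regulatory factor repeat, TGACTCA of AP-1 and TGTGGTT of RUNX proteins. Of 27025 promoters of this length, 8.47%, 6.99%, 3.49%, 5.17% and 5.37% held these motifs. The Il7r promoter and the second of 2 Il15ra entries held a match, and both are shown, 5′ to 3′ along the gene with the matches in capitals, because they were the entries with a match; the other 6 held none of the 5. In Il7r (chr15:9529827-9530126, minus strand) a TTCNNNGAA match starts at position -142 from the start site and a TGTGGTT match at position 4. In Il15ra (chr2:11705462-11705761, plus strand) a match to TGACTCA on the other strand starts at position -30. A match describes the letters and does not show that a factor binds.
Il7r: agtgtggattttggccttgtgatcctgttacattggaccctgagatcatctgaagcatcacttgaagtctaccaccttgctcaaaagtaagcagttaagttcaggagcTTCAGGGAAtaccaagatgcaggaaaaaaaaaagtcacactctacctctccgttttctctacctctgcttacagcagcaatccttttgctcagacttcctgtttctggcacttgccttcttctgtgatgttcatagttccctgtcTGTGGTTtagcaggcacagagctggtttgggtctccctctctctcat
Il15ra: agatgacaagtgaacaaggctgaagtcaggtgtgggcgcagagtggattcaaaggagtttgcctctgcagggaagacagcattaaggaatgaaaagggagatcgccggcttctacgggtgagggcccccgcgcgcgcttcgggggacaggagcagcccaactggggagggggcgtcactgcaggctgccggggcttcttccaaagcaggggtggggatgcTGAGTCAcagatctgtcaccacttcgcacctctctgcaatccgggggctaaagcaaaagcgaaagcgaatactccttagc

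Among the ligands, Il15 was highest in macrophage-like and cDC1-like cells of the classes with at least 100 cells per pool, Il21 was gathered in Il17a-led and CD4 T-like cells, and Il2 was almost unseen. Il15 stood at 44.7 (39.2 to 50.8) and 41.5 (34.8 to 49.0) CPM in macrophage-like cells, and at 30 (25.6 to 34.8) and 24.8 (21.3 to 28.7) CPM in cDC1-like cells, the dendritic cells known for cross-presentation. In both pools macrophage-like cells were above cDC1-like cells, with no overlap of the counting intervals. Their ratios between the pools were 0.928 (0.746 to 1.15) and 0.827 (0.667 to 1.03), so neither interval lay apart from 1. The third myeloid class of that size, cDC2-like cells, had 12.1 and 2.33 CPM, the latter being what 3 counts give there. In CD4-Cre this was under the 6.48 CPM of Klra7- and Xcl1-led cells, but the counting intervals of these classes overlapped in both pools. Migratory DC-like cells had 78.0 and 22.3 CPM from 13 UMIs in each pool, and neutrophil-like cells had 17.4 and 88.5 CPM from 2 and 16 UMIs. These 2 small classes stood in opposite order in the pools. CD4 T-like cells had 2.68 and 1.62 CPM and Gzma-led cells 0.682 and 0.606 CPM. In the immunoglobulin-rich class Il15 was at 5 and 5.14 CPM. Barcodes with 150 to 350 UMIs, which are taken here as free RNA, had 7.36 and 5.21 CPM. The immunoglobulin-rich class held 58.9% and 60.7% of all Il15 UMIs. Its share of the UMIs of all genes in kept cells was larger, 156060629 of 198152238 and 136287860 of 177456457.

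Il15 in macrophage-like cells depended on which cells were counted. The class had 193000 and 179000 CPM of plasma cell genes, although the median cell had 3.72% and 3.46% immunoglobulin UMIs. Without cells over 10% immunoglobulin UMIs the mean of the 2 pools went from 43.1 to 63.0 CPM. At 1500 UMIs per cell, a depth to which cells were thinned with shallower ones left out, 7.57% and 7.36% of macrophage-like cells held an Il15 UMI, against 23.8% and 21.2% unthinned.

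Il21, the cytokine that supports germinal centres and plasma cell formation, stood at 40.3 (20.8 to 70.5) and 40.3 (17.4 to 79.3) CPM in Il17a-led cells, from 12 UMIs in 9 cells and 8 UMIs in 5 cells. In this class Il17a, the cytokine that names Th17 cells, was seen in 78.4% and 77.2% of its cells and Il23r in 62.2% and 70.2%. CD4 T-like cells had 2.68 (1.29 to 4.94) and 4.25 (2.63 to 6.50) CPM of Il21, from 10 and 21 UMIs. Of all Il21 UMIs, 40% and 22.9% lay in Il17a-led cells and 33.3% and 60% in CD4 T-like cells. Zbtb16-led, Klra7- and Xcl1-led, Gzma-led and CD8 T-like cells had 0 UMIs in both pools, and 3 counts, the limit that a count of 0 allows, would be 2.08 and 1.17 CPM in Zbtb16-led cells.

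Il2, the growth factor of activated T cells, gave 29 and 31 UMIs in all kept cells. In CD4 T-like cells it was seen as 14 UMIs in 10 cells and 5 UMIs in 5 cells, or 3.76 (2.05 to 6.30) and 1.01 (0.329 to 2.36) CPM. Together they stay under the 20 UMIs set for a ratio.

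**Figure D1:**
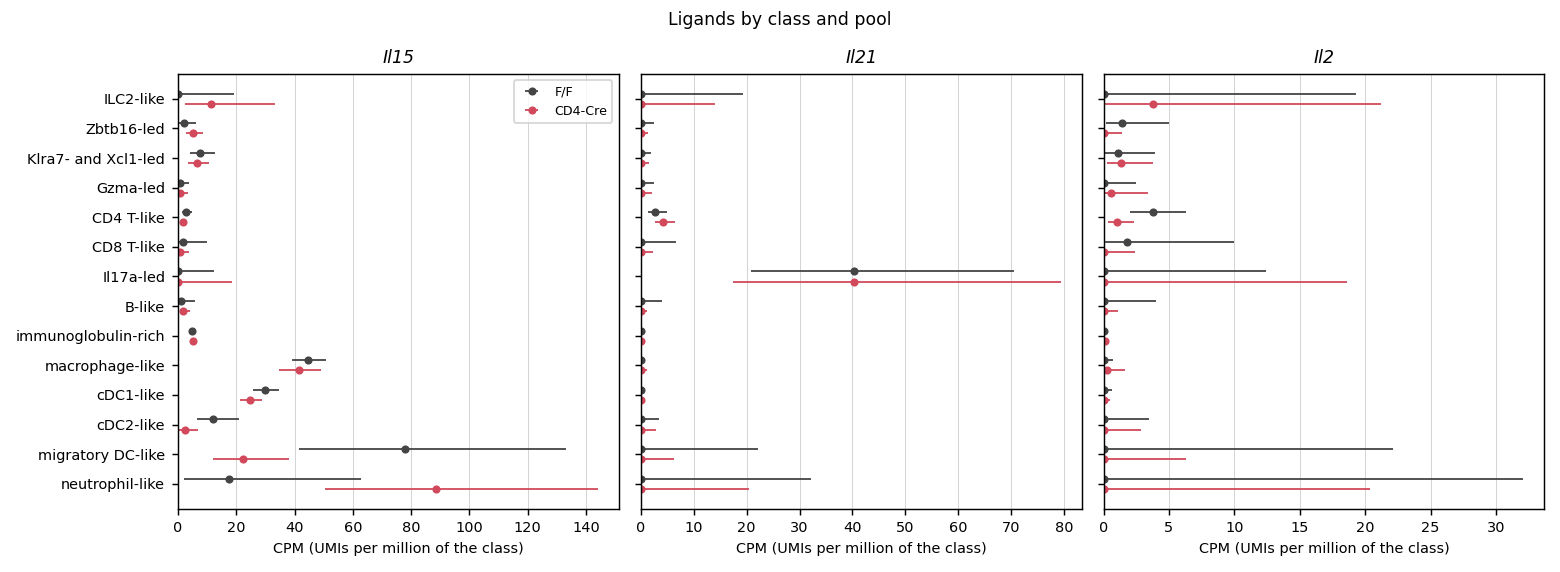
Levels of the 3 ligands in 14 classes. Each point is 1 pool (dark grey F/F, red CD4-Cre), the horizontal axis is CPM on a linear scale that differs between panels, and bars are 95% Poisson intervals that cover counting error only. Il15 is highest among well-filled classes in macrophage-like and cDC1-like cells, and Il21 in Il17a-led cells at 40.3 CPM in both pools.

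Among the receptor chains, Il7r was highest in ILC2-like and Zbtb16-led cells. Of the lymphoid classes, it was low in the cytotoxic Gzma-led and the Il17a-led cells, and also in B-like and immunoglobulin-rich cells. ILC2-like cells, the innate source of type 2 cytokines, had the highest level, 919 (788 to 1070) and 864 (755 to 984) CPM, apart from the next class in F/F and overlapping it in CD4-Cre. Zbtb16-led cells followed with 618 (578 to 660) and 782 (748 to 817) CPM, apart from the class below them in both pools. Next came Klra7- and Xcl1-led cells at 228 and 315 CPM, CD4 T-like cells at 196 and 250 CPM and CD8 T-like cells at 193 and 160 CPM. Neighbours among these 3 overlapped in F/F and were apart in CD4-Cre. Gzma-led cells had 34.8 and 60.6 CPM and Il17a-led cells 13.4 and 25.2 CPM, the latter from 1 cell in each pool. B-like cells had 7.57 and 4.29 CPM and immunoglobulin-rich cells 0.455 and 0.814 CPM. Both were under the 13.1 and 21.3 CPM of barcodes with 150 to 350 UMIs.

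Il2rb followed a different order. Zbtb16-led cells were highest, at 532 (495 to 571) and 506 (479 to 534) CPM, ahead of Klra7- and Xcl1-led cells at 325 and 349 CPM and Gzma-led cells at 291 and 265 CPM. Zbtb16-led cells were apart from the next class in both pools, and the other two overlapped in F/F and were apart in CD4-Cre. CD4 T-like cells had 116 and 129 CPM and CD8 T-like cells 102 and 100 CPM. ILC2-like cells, with 44 and 65 cells, had 141 (92.9 to 205) and 278 (218 to 349) CPM, so their place could not be fixed. Gzma-led cells, in which Trdc was seen in 85.7% and 75.5% and Cd8a in 72.7% and 81.0% of cells, thus stood in rank 3 of 14 classes for Il2rb and in rank 7 for Il7r, where all lymphoid classes but Il17a-led, B-like and immunoglobulin-rich cells were above them. All myeloid classes with at least 100 cells, B-like cells and immunoglobulin-rich cells stood between 2.61 and 15.3 CPM. Free RNA held 20.2 and 24.1 CPM of Il2rb in barcodes with 150 to 350 UMIs, so these low values are under that of free RNA. In barcodes with 10 to 100 UMIs it was 150 and 140 CPM. Under this second measure lay also CD4 T-like and CD8 T-like cells in both pools, ILC2-like cells in F/F and Il17a-led cells in CD4-Cre.

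Il2rg, the shared chain, stood between 171 and 303 CPM in ILC2-like, Klra7- and Xcl1-led, Zbtb16-led, CD4 T-like, CD8 T-like and Il17a-led cells. Gzma-led cells were lower, at 119 and 111 CPM. Among myeloid classes it was 68.2 and 83.1 CPM in cDC2-like, 54.4 and 53.5 CPM in macrophage-like and 16.4 and 13.6 CPM in cDC1-like cells, the lowest of the 14 classes in both pools. In immunoglobulin-rich cells it was 45.6 and 40.4 CPM, beside 42.2 and 43.8 CPM in barcodes with 150 to 350 UMIs. Barcodes with 10 to 100 UMIs had 90.6 and 82.1 CPM of Il2rg. Macrophage-like, cDC1-like and immunoglobulin-rich cells were under this second measure in both pools, and cDC2-like cells in F/F. B-like cells had 72.5 (56.2 to 92.1) and 28.2 (22.7 to 34.6) CPM, from 76 and 171 cells; the pools did not overlap, and their median depths were 8377.5 and 14238.0 UMIs.

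Il21r, the receptor of IL-21, was highest in Klra7- and Xcl1-led cells, at 237 (215 to 260) and 238 (219 to 259) CPM. Gzma-led cells had 136 and 156 CPM, CD4 T-like cells 129 and 114 CPM, CD8 T-like cells 116 and 89.2 CPM and Zbtb16-led cells 110 and 82.0 CPM, and each overlapped its neighbour in at least 1 pool. B-like cells had 61.7 and 56.7 CPM and immunoglobulin-rich cells 0.301 and 0.279 CPM, so these 2 classes stood apart.

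Il4ra, the chain that receives IL-4 and, with Il13ra1, IL-13, was shared by lymphoid and myeloid classes. It was at 57.8 (47.2 to 69.9) and 52.7 (43.8 to 62.9) CPM in Klra7- and Xcl1-led cells, 43.2 and 44.2 CPM in macrophage-like cells and 54.0 and 63.4 CPM in the 12 and 34 migratory DC-like cells. CD4 T-like cells had 20.9 and 22.1 CPM and cDC1-like cells 13.6 and 14.5 CPM. Il15ra was low in all classes with at least 100 cells, between 1.39 and 11.1 CPM, and its neighbours overlapped through most of the order. Barcodes with 150 to 350 UMIs had 3.27 and 1.74 CPM of Il15ra, and those with 10 to 100 UMIs had 3.68 and 7.41 CPM. Of 48 F/F and 31 CD4-Cre macrophage-like cells with an Il15 UMI at 1500 UMIs per cell, 0 also held an Il15ra UMI, which allows up to 7.40% and 11.2% of them by the exact Clopper-Pearson interval. Unthinned, 9 of 161 and 1 of 97 did. Il15ra was too sparse here to show whether ligand and presenting chain share cells.

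**Figure D2:**
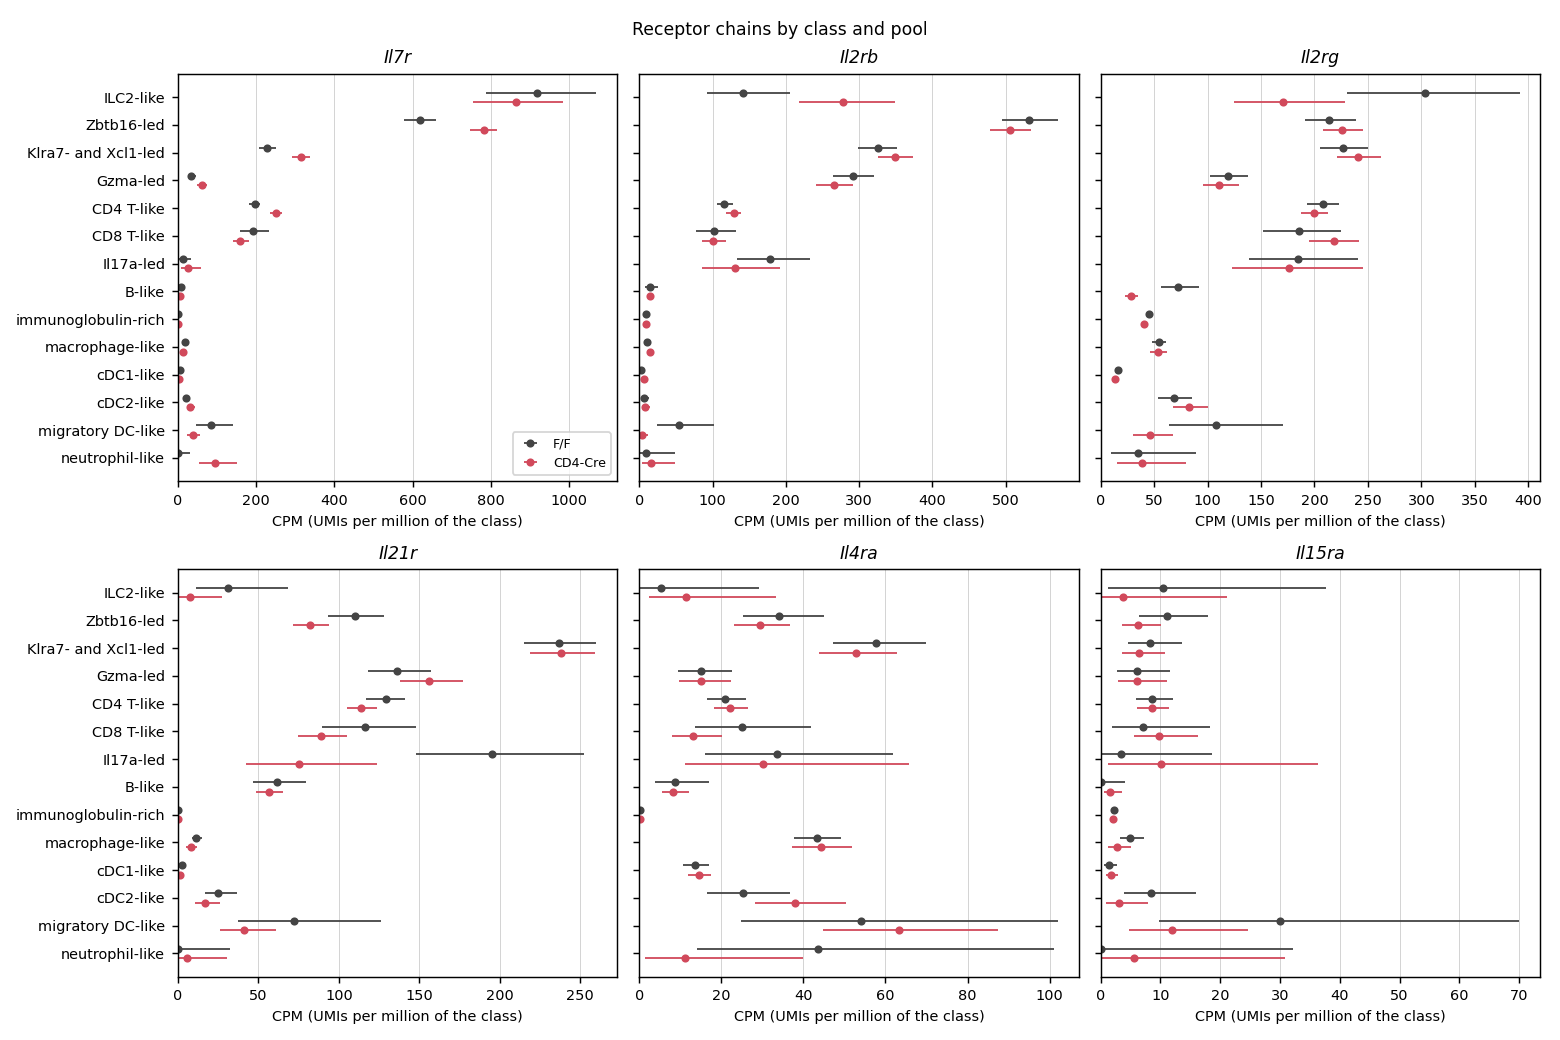
Levels of the 6 receptor chains in 14 classes. Each point is 1 pool (dark grey F/F, red CD4-Cre), the horizontal axis is CPM on a linear scale that differs between panels, and bars are 95% Poisson intervals that cover counting error only. Gzma-led cells are low for Il7r, at 34.8 and 60.6 CPM, and high for Il2rb, at 291 and 265 CPM.

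Between the pools, 55 values of members by class had at least 20 UMIs over both libraries, and 9 of them (16.4%) were past 1.5-fold, 5 higher and 4 lower in CD4-Cre. Of these 9, 5 rested on under 40 UMIs and 3 had intervals apart from 1. The share of all genes past 1.5-fold was 10.8% in immunoglobulin-rich, 11.0% in CD4 T-like, 13.5% in macrophage-like, 13.8% in Zbtb16-led, 13.6% in Klra7- and Xcl1-led, 10.3% in cDC1-like, 18.3% in Gzma-led, 22.5% in CD8 T-like and 21.3% in cDC2-like cells. By class, 1 of 7 measured members was past the fold in immunoglobulin-rich, CD4 T-like and macrophage-like cells each, 2 of 7 in cDC1-like, 1 of 6 in Zbtb16-led, 1 of 5 in Gzma-led and in CD8 T-like, 1 of 4 in cDC2-like and 0 of 7 in Klra7- and Xcl1-led cells. The members' share lay within the range of these backgrounds.

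Il7r had the most intervals apart from 1, 5 of 9 classes, all above it. The ratio was 1.27 (1.17 to 1.37) in Zbtb16-led, 1.28 (1.17 to 1.40) in CD4 T-like, 1.38 (1.22 to 1.56) in Klra7- and Xcl1-led and 1.74 (1.23 to 2.49) in Gzma-led cells. CD8 T-like cells stood at 0.830 (0.659 to 1.05), and macrophage-like cells at 0.737 (0.506 to 1.06). In immunoglobulin-rich cells the ratio was 1.79 (1.32 to 2.45), from 71 and 111 UMIs, and 1.5 (1.01 to 2.22) without cells holding a UMI of a T cell gene. T cell genes were higher in the same class: Cd3e and Trdc had a ratio of 1.62 each, Trbc2 1.37, Trbc1 and Nkg7 1.29 each, Cd3g 1.28 and Cd3d 1.22, all with intervals above 1, and Trac 1.13 (0.935 to 1.38). The free RNA level of Il7r was itself 13.1 and 21.3 CPM in barcodes with 150 to 350 UMIs, and the part of free RNA or of T cell transcripts in these ratios was not tested.

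Within classes, the Il7r ratio was above 1 beside either kind of T cell receptor transcript in Zbtb16-led and in Klra7- and Xcl1-led cells. In Zbtb16-led cells with a Trac and no Trdc UMI, Il7r was 532 and 729 CPM, a ratio of 1.37 (1.21 to 1.56). In those with a Trdc and no Trac UMI, the transcript of the δ chain, it was 693 and 917 CPM, a ratio of 1.32 (1.15 to 1.52). In Klra7- and Xcl1-led cells the same gates gave 1.32 (1.04 to 1.66) and 1.35 (1.07 to 1.72), and cells without any Cd3, Trac or Trdc UMI gave 1.48 (1.14 to 1.94), from 441 and 654 CPM. Gzma-led cells differed: the ratio was 1.95 (1.37 to 2.82) in all cells with a Trdc UMI, from 40.2 and 78.5 CPM, and 1.03 (0.539 to 1.97) in those with Trdc and no Trac, from 50.9 and 52.3 CPM. Among CD4 T-like cells it was 258 and 326 CPM in the Foxp3-rich cluster, with a ratio of 1.27 (1.12 to 1.43), and 1.31 (1.14 to 1.52) in the other cluster. Cells with a Foxp3 UMI, the mark of regulatory T cells, gave 1.15 (0.976 to 1.37) and those without 1.34 (1.20 to 1.5); these intervals overlap.

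By class, most Il2rb and Il2rg ratios were near 1. The Il2rb ratio lay between 0.911 and 1.35 in 7 of 8 classes. In cDC1-like cells it was 2.49 (1.37 to 4.80), from 15 and 47 UMIs or 2.61 and 6.51 CPM. Its log2 ratio of 1.32 was 0.63 with clusters drawn at resolution 0.6. Of those UMIs, 10 and 34 lay in cells that also held a UMI of a T cell gene, at 8.27 and 16.4 CPM, and 5 and 13 in the others, at 1.10 and 2.52 CPM. Of 8 T cell genes in the class, Trac had a ratio of 1.99 (1.16 to 3.53), and the intervals of the others held 1, with ratios from 0.869 for Trbc1 to 1.38 for Trbc2. In Gzma-led cells with a Trdc and no Trac UMI, 90 and 84 cells, Il2rb was 296 and 171 CPM, a ratio of 0.579 (0.427 to 0.781), beside 0.989 (0.752 to 1.31) in those with Trac and no Trdc. The Il2rg ratio lay between 0.829 and 1.22 in all 9 classes, and its interval was under 1 in immunoglobulin-rich cells, at 0.885 (0.855 to 0.917).

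Il21r was lower in CD4-Cre Zbtb16-led cells, 110 against 82.0 CPM, a ratio of 0.748 (0.605 to 0.925), and was level in Klra7- and Xcl1-led cells, at 1.01 (0.885 to 1.14). Within the latter class, cells without a Cd3 UMI had 174 (132 to 224) and 80.5 (49.2 to 124) CPM, a ratio of 0.463 (0.264 to 0.780), and cells with one had 251 and 257 CPM, a ratio of 1.02 (0.895 to 1.17). The same cells without a Cd3 UMI had Il7r at 348 and 632 CPM, a ratio of 1.82 (1.42 to 2.33), and Il2rb at 522 and 680 CPM, a ratio of 1.30 (1.05 to 1.62). These were 87 and 75 cells, and the 3 chains differed in direction in them. Cells of the class without any Cd3, Trac or Trdc UMI, 66 and 61 of them, gave 0.401 (0.212 to 0.721) for Il21r and 1.42 (1.10 to 1.83) for Il2rb. Gzma-led cells had an Il21r ratio of 1.15 (0.949 to 1.39), and all those with a Trdc UMI, 204 and 231 cells, had 1.07 (0.873 to 1.32). Smaller subsets lay on both sides: 0.565 (0.395 to 0.801) with Trdc and no Trac, 90 and 84 cells, from 223 and 126 CPM. Cells with Trac and no Trdc had 1.71 (0.994 to 3.07), and those without a Trdc UMI 1.75 (1.07 to 2.96). Il17a-led cells had Il21r at 195 (148 to 252) and 75.5 (42.2 to 124) CPM, from 58 and 15 UMIs.

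The remaining values past the fold had intervals that held 1: Il21 in CD4 T-like cells at 1.59 (0.715 to 3.77), Il15ra at 0.544 (0.224 to 1.20) in macrophage-like and 0.563 (0.263 to 1.20) in Zbtb16-led cells, Il21r at 0.489 (0.176 to 1.27) in cDC1-like cells, and Il4ra at 0.525 (0.252 to 1.12) in CD8 T-like and 1.51 (0.925 to 2.51) in cDC2-like cells. In cDC2-like cells the median share of immunoglobulin UMIs was 4.36% in F/F and 34.7% in CD4-Cre, which stands beside any ratio of that class.

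**Figure D3:**
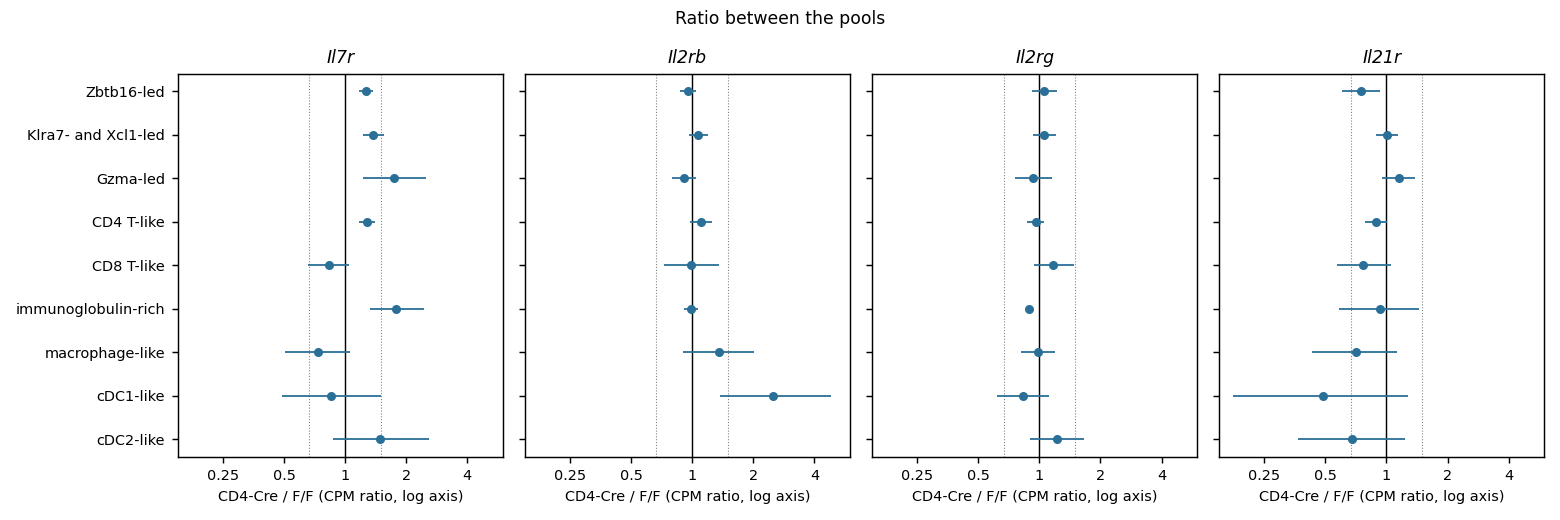
Ratio of CD4-Cre over F/F for 4 receptor chains in the classes with at least 100 cells per pool and 20 UMIs of the gene. The horizontal axis is logarithmic, bars are exact 95% intervals of counting error, the solid line marks equal levels and dotted lines 1.5-fold either way. Il7r lies above 1 in Zbtb16-led, Klra7- and Xcl1-led, Gzma-led, CD4 T-like and immunoglobulin-rich cells and at 0.830 in CD8 T-like cells, while Il2rg stays between 0.829 and 1.22.

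**Figure D4:**
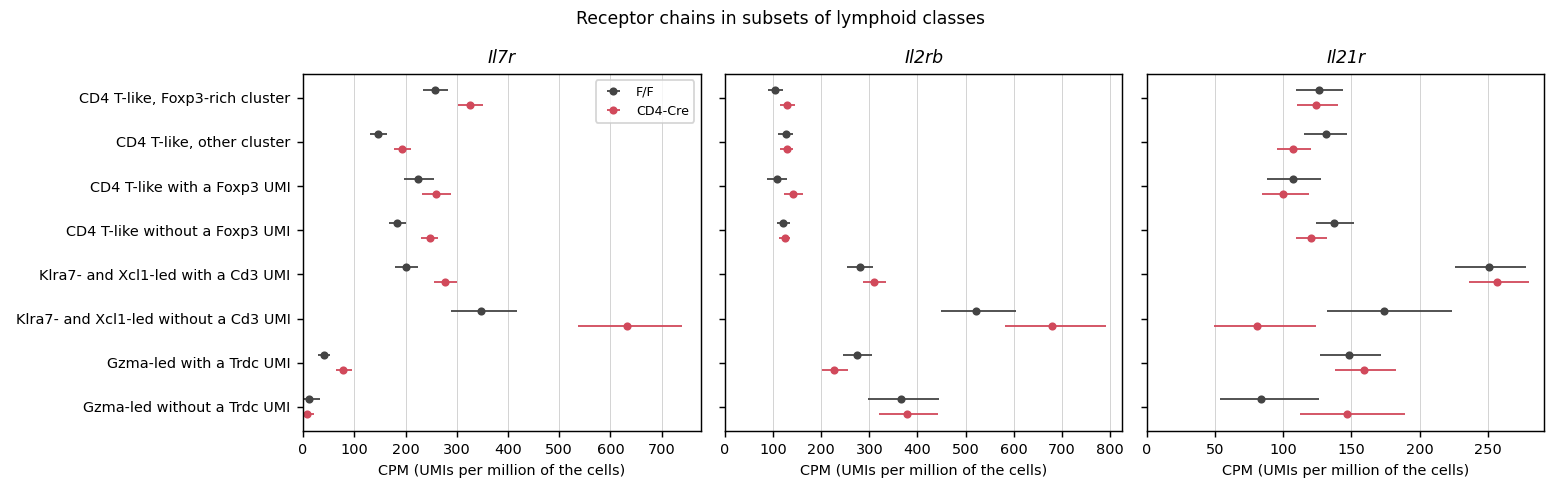
Il7r, Il2rb and Il21r in subsets of 3 lymphoid classes, split by cluster or by detected Foxp3, Cd3 or Trdc UMIs. Points are CPM of 1 pool (dark grey F/F, red CD4-Cre) with 95% Poisson intervals of counting error. Klra7- and Xcl1-led cells without a Cd3 UMI have Il7r at 348 and 632 CPM and Il21r at 174 and 80.5 CPM.

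Il2rb and Il7r were seen in the same cells to a degree that differed by class and depth. At 1500 UMIs per cell, Il7r was seen in 55.3% (47.9 to 62.6) of Zbtb16-led cells with Il2rb in F/F and in 61.1% (56.1 to 65.9) in CD4-Cre, and in 59.3% and 65.1% of those without. In CD4 T-like cells the shares were 19.0% and 25.8% with Il2rb and 24.9% and 27.8% without. In Klra7- and Xcl1-led cells they were 29.5% and 39.7% with, and 24.4% and 28.5% without. Gzma-led cells had 6.33% and 6.02% with, and 5.70% and 8.52% without. Unthinned, Il7r was rarer beside Il2rb in Gzma-led cells, 8.97% (4.86 to 14.8) and 11.6% (7.25 to 17.4) with against 20.4% (12.8 to 30.1) and 24.6% (17.6 to 32.8) without; these intervals were apart in CD4-Cre only. In CD8 T-like cells the unthinned shares were 18.4% (7.74 to 34.3) with and 46.7% (36.1 to 57.5) without in F/F, which were apart, and 30% and 35.8% in CD4-Cre, which overlapped.

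Other ligands and receptors of the family were read from a list of 10 genes. Il4 stood at 126 and 109 CPM in Zbtb16-led cells and at 57.4 and 72.3 CPM in ILC2-like cells, and at 1.34 and 2.03 CPM in CD4 T-like cells. Il7 and Tslp, ligands known from stromal and epithelial cells, gave at most 4 and 1 UMIs in any class and pool. Il2ra, which raises the affinity for IL-2, was highest in ILC2-like cells, at 256 and 202 CPM. In the Foxp3-rich CD4 T-like cluster it was 65.1 and 97.3 CPM, a ratio of 1.49 (1.18 to 1.90), and in the other cluster 14.4 and 6.41 CPM, a ratio of 0.445 (0.234 to 0.825). Of the list, 0 of 3 measured genes were past 1.5-fold in CD4 T-like and in Zbtb16-led cells. In Klra7- and Xcl1-led cells 1 of 2 was, Il2ra at 0.583 (0.337 to 0.997), beside 13.6% of all genes.

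Of 8 JAK and STAT genes, 0 were past 1.5-fold in CD4 T-like, Zbtb16-led and Klra7- and Xcl1-led cells, with medians of 0.10, 0.15 and 0.03 on the log2 scale beside 0.08, 0.04 and 0.06 over all genes tested. Gzma-led cells had 1 higher, Stat5a at 2.22 (1.3 to 3.94). CD8 T-like cells had 1 higher, Tyk2 at 2.2 (0.846 to 7.27) from 5 and 30 UMIs. In cDC1-like cells 1 was lower, Stat5a at 0.64 (0.403 to 1.01). The share of all genes past the fold was 18.3%, 22.5% and 10.3% in these classes. Jak1 was 267 and 325 CPM in CD4 T-like cells, a ratio of 1.22 (1.12 to 1.32), and 1.37 (1.19 to 1.59) in Gzma-led cells.

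Of 14 genes known to follow STAT5 or STAT3 in lymphocytes, 9 to 13 were measured in a class, and their directions were mixed. In CD4 T-like cells, where 11.0% of all genes were past the fold, 1 of 12 was, with a median of 0.15. That gene was Bcl2, a survival factor known to act downstream of IL-7, at 105 and 159 CPM, a ratio of 1.52 (1.34 to 1.72). Bcl2 ratios were also above 1 in Zbtb16-led cells, at 1.33 (1.25 to 1.42), Klra7- and Xcl1-led cells, at 1.19 (1.12 to 1.26), and Gzma-led cells, at 1.47 (1.36 to 1.6). They were under 1 in CD8 T-like cells, at 0.774 (0.645 to 0.932), and macrophage-like cells, at 0.765 (0.650 to 0.898). Also under 1 were cDC2-like cells, at 0.487 (0.323 to 0.726), and immunoglobulin-rich cells, at 0.952 (0.922 to 0.983). In cDC1-like cells the Bcl2 interval held 1, at 1.17 (0.941 to 1.46). Whether Bcl2 and Il7r levels are linked was not tested.

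Myc, a driver of growth, was past the fold and lower in 4 classes. It was 2.83 and 1.51 CPM in immunoglobulin-rich cells, a ratio of 0.535 (0.451 to 0.633), 24.8 and 9.94 CPM in Klra7- and Xcl1-led cells, a ratio of 0.401 (0.232 to 0.677), and had ratios of 0.325 (0.110 to 0.798) in macrophage-like and 0.398 (0.147 to 0.985) in cDC1-like cells. In immunoglobulin-rich and in cDC1-like cells it was the 1 gene of 12 past the fold. Klra7- and Xcl1-led cells had 2 of 12, both lower, the other being Prdm1 at 0.464 (0.215 to 0.963). Macrophage-like cells had 2 of 13 lower, Myc and Socs2 at 0.375 (0.198 to 0.665), and Osm higher at 1.62 (0.981 to 2.68). In Zbtb16-led cells 0 of 11 were past the fold, with a median of -0.17. Of all genes, 10.8% were past the fold in immunoglobulin-rich, 10.3% in cDC1-like and 13.6% in Klra7- and Xcl1-led cells. The share was 13.5% in macrophage-like and 13.8% in Zbtb16-led cells.

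In Gzma-led and in CD8 T-like cells 3 of 10 were higher and 1 was lower, in classes where 18.3% and 22.5% of all genes were past the fold, more of them higher (970 and 1139) than lower (595 and 518). Cish, an inhibitor of cytokine signalling induced by STAT5, was among the higher ones in both, at 2.09 (1.09 to 4.24) in Gzma-led and 2.57 (1 to 8.41) in CD8 T-like cells, beside 1.15 (0.988 to 1.34) in CD4 T-like and 0.688 (0.529 to 0.895) in Zbtb16-led cells. The kinase gene Pim2 had 1.6 (1.11 to 2.31) and 1.53 (0.964 to 2.53), Socs3 2.16 (0.851 to 6.16) in Gzma-led and Prdm1 1.67 (0.904 to 3.31) in CD8 T-like cells. Socs1, another inhibitor of cytokine signalling, was the lower one in both, at 0.618 (0.305 to 1.22) and 0.289 (0.119 to 0.684). cDC2-like cells had 1 of 9 higher, Socs2 at 2.12 (0.947 to 5.22), and 2 lower, Bcl2 and Gzmb, the latter at 0.342 (0.120 to 0.868), beside 21.3% of all genes.

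Of 10 genes known to follow IL-4 through STAT6 in myeloid cells, 8 were measured in macrophage-like cells, 1 higher and 2 lower, where 13.5% of all genes were past the fold. Retnla was 145 and 45.7 CPM, a ratio of 0.316 (0.264 to 0.376), Arg1 had a ratio of 0.357 (0.106 to 0.967) and Chil3, also a monocyte gene, was 87.5 and 425 CPM, a ratio of 4.86 (4.37 to 5.41), while Il4ra in the same cells had a ratio of 1.02 (0.826 to 1.26). In cDC2-like cells 1 of 6 was higher and 4 were lower, beside 21.3% of all genes past the fold. Ccl22, a chemokine of mature dendritic cells, was the higher one, from 3 and 70 UMIs, at 2.80 and 54.3 CPM. Retnla had a ratio of 0.178 (0.155 to 0.204), Mrc1 0.489 (0.301 to 0.782), Ccl17 0.549 (0.438 to 0.686) and Clec10a, also a marker of the class, 0.582 (0.445 to 0.759). In cDC1-like cells 1 of 6 was higher, Ccl22 at 2.70 (2.06 to 3.58), and 1 lower, Arg1 at 0.550 (0.208 to 1.39). In immunoglobulin-rich cells, Ccl22 at 3.54 (1.75 to 7.74) and Chil3 at 2.42 (1.04 to 6.07) were the 2 of 9 past the fold. Of all genes, 10.3% were past the fold in cDC1-like and 10.8% in immunoglobulin-rich cells. In CD4 T-like, Zbtb16-led and Klra7- and Xcl1-led cells 0 of 1 measured was past the fold, and in Gzma-led and CD8 T-like cells the 1 measured gene was Socs1, given above.

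Across the 18 points of 9 classes and 2 pools, which share libraries and differ in depth, Pearson correlations of log2(CPM + 1) described which genes had a pattern like a member's. Il2rb and Il2rg had r = 0.87, Il2rg and Il7r r = 0.89, and Il15 ran against Il2rg at r = -0.65. Of 8078 genes compared, those most like Il7r were Raet1e (0.974), Gabpb1 (0.972) and Pcgf5 (0.971), those most like Il2rb were Cysltr2 (0.987), Txk (0.980) and Sytl3 (0.979), and those most like Il15 were Ifi211 (0.902), Hk3 (0.902) and Tubb2a (0.889). Il2, Il15ra and Il21 were under the limits for this comparison.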

How the data were processed

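The 2 unfiltered droplet libraries, 1 per genotype, were read as whole UMI counts per gene and barcode, used as deposited by the authors. Per the submitters' processing notes, Cell Ranger 7.2.0 and Seurat 5.0.1 were used and the genome was mm10 (GRCm38); no deposited cell annotation was used here. Barcodes with at least 1000 UMIs, 500 genes and at most 10% mitochondrial UMIs were kept. Both libraries were clustered together (2000 variable genes, 30 components, 15 neighbours, leidenalg 0.10.2, resolution 1, seed 1) without the members, immunoglobulin, T cell receptor, pancreatic and gastric genes and Cd4. Classes were named from listed markers; limits that separate T cell classes were set after the data were seen. No doublet caller was run; clusters with T and plasma genes, a cluster led by pancreatic genes, 15 stromal-like cells and 1 unnamed cluster that is not reported here, 1774 cells in all, were left out. UMIs were summed per class and pool (scipy 1.17.1), with exact Poisson, binomial and Clopper-Pearson intervals at 95%. The ratio and interval code was tested on simulated data. A ratio of a class needed 20 UMIs over both pools and 100 cells in each. Ratios of subsets within a class needed the 20 UMIs but not the 100 cells, and some rest on under 100 cells per pool. UMIs of 1 cell are not independent, so intervals are too narrow where few cells hold most UMIs. All 9 members were named, and from each pathway list the members past 1.5-fold and some with high levels. Members and lists were chosen with earlier results of these data known. Positions were matched by identifier to GENCODE M21. Alternatives changed the resolution, filters, scaling, thinning and cells counted, and 1 was chosen after the data were seen. Splits by a UMI of a T cell gene, and subsets set by Trac and Trdc UMIs together, were also added after the data were seen. For subsets of a class, the share of all genes past 1.5-fold was not computed. No protein sequence table was used here.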

Additional observations from a re-analysis of the deposited data

How the results depend on the processing

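The count of member values past 1.5-fold went from 9 to 16 with no minimum of UMIs and lay between 7 and 11 under the other settings run. The Il21 log2 ratio in CD4 T-like cells, 0.66 from 31 UMIs, turned to -0.14 at resolution 0.6 and to -0.00 with pancreatic and gastric genes among the variable genes, and was 0.05 at resolution 1.6 and 1.43 without the 5 highest cells per pool; the cause was not tested. At resolution 0.6 the log2 ratios in cDC1-like cells went from 1.32 to 0.63 for Il2rb and from -1.03 to -0.05 for Il21r, which was -0.34 without the 5 highest cells. That last setting took Il15ra in macrophage-like cells from -0.88 to -2. Il15 in macrophage-like cells, 43.1 CPM as the mean of the pools, was 36.2 at resolution 0.6, 53.1 without immunoglobulin, pancreatic and gastric UMIs in the total, 63.0 without cells over 10% immunoglobulin, 59.5 as a mean over cells and 37.9 without the 5 highest cells per pool. Il2rb in Zbtb16-led cells went from 519 to 547 CPM with that total, and without the 5 highest cells per pool Il2 in CD4 T-like cells went from 2.38 to 0.676, Il21 there from 3.47 to 1.53 and Il21r in Klra7- and Xcl1-led cells from 237 to 221. Without thinning, Il7r among cells with Il2rb was 50.4% against 35.1% thinned in Klra7- and Xcl1-led and 37.9% against 23.4% thinned in CD4 T-like cells. In Zbtb16-led cells it was 79.5% against 75.9% in cells without Il2rb, where thinned cells had 59.2% against 63.0%, so that order turned with depth. The Il7r log2 ratio in immunoglobulin-rich cells went from 0.84 to 0.58 without cells holding a T cell gene UMI, which was added once the data had been looked at. A level has no minimum of UMIs, so that setting was not run for levels. No paired analysis was possible because each genotype was 1 pool. With 1 pool per genotype, differences between mice, cages or preparations cannot be told apart from genotype.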
